A study of Mus musculus with 10 samples.

Results

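The 9 hypoxia response genes described here are Hif1a, Epas1, Egln3, Vegfa, Adm, Car9, Bnip3, Ndrg1 and Ankrd37. They were chosen by symbol and are 9 of the 50559 genes counted in 10 mouse libraries. All 9 passed the filter on low counts, as did 29952 genes in total. RNA came from formalin-fixed, paraffin-embedded (FFPE) tissue, taken from the tumors of the new model as biopsy punches, which hold all cells within their area.

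The study compared a new tumor model with normal cerebellum and with an established medulloblastoma (MB) model. The 4 MYC/SMARCA4 tumors grew from granule cell precursors (GCPs) of Math1-creERT2::Smarca4fl/fl pups. In these pups the Math1 promoter drives a Cre that tamoxifen activates, and 0.4 mg tamoxifen was given at P3 to delete Smarca4. The GCPs then received a lentivirus carrying murine Myc and GFP under a CMV promoter and were transplanted without sorting into cerebella of CD1nu/nu mice, which lack mature T cells but retain other immune and brain cells. Tumors 1, 2, 3 and 4 have label ages of 112, 96, 89 and 79 days. The 3 P7 cerebella were whole cerebella of Math1-creERT2::Smarca4fl/fl mice, aged 7 days, that also had 0.4 mg tamoxifen at P3. They carry the same floxed allele and agent as the donors of the tumors, and cells outside the Math1 lineage keep Smarca4. The 3 SHH MB came from Math1-cre::Smofl/wt mice, in which Cre turns on an active form of the Sonic Hedgehog signal transducer Smo in the same lineage, and their label age is 7 days.

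Cells sense oxygen through the HIF transcription factors. With oxygen, prolyl hydroxylases of the EGLN family mark the HIF alpha subunits for destruction by the VHL ubiquitin ligase. Without it, the alpha subunits, encoded by Hif1a and Epas1, accumulate, pair with ARNT and bind the core RCGTG of hypoxia response elements, turning on genes for vessel growth, pH control, glycolysis and mitophagy. HIF alpha is controlled mainly as protein, so the mRNA of Hif1a and Epas1 does not measure HIF activity. In the developing cerebellum, HIF1 and its control by VHL are known to act in GCPs, and solid tumors often have regions short of oxygen.

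The HIF core was read from promoters, defined as 250 bases before to 50 after a gene start. The aim was to show where these letters lie upstream of Bnip3, the only member called in the fit of all 10 libraries. RefSeq promoters, on build GRCm38.p6, were found for 7 of the 9 members, in 8 entries, with no entry for Epas1 and Ndrg1. Each entry was searched on its own chromosome and strand of GRCm39, where it occurs once without mismatch. The coordinates given here are those of GRCm39. Stretches of Adm and Egln3, neither of which was called, are printed for comparison, since theirs are the only others that lie outside the annotated gene. Capitals mark ACGTG or GCGTG on either strand, so that CACGT and CACGC are the same letters read from the other strand, and CACGTG holds ACGTG on both.

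Bnip3, chr7:138511254-138511364, minus strand: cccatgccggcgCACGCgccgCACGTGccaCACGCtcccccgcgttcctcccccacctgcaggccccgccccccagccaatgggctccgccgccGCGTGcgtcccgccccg
Adm, chr7:110226762-110226826, plus strand: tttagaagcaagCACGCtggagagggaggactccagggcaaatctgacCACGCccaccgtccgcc
Egln3, chr12:54250873-54250901, minus strand: tgtgcatctcagACGTGagatccaggttt

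Bnip3 has 4 such places in the stretch from -129 to -19 relative to its start, Adm has 2 and Egln3 has 1. Of the entries not printed, Ankrd37 has 3, Hif1a 2 and Car9 1, and the entries of Vegfa have 2 and 0. ACGTG or GCGTG occurred in 7 of the 8 entries of members, against 43.8% of all 32851 RefSeq promoters of this length. Taken alone, ACGTG occurred in 19.6% and GCGTG in 32.4% of all promoters. CACGTG, which other factors such as MYC and MAX also bind, was present in 7.15% of all promoters, and in those of Bnip3 and Hif1a among the members. A match describes letters only and is no evidence of binding.

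In all libraries between 5663491 and 9352109 reads were counted on genes, and 3 counts, taken as the floor, correspond to 0.307 to 0.744 CPM, which are counts scaled to a common normalized library size. Floors, and the intervals of ratios between single libraries, cover counting error only, whereas intervals of log2 fold changes come from the edgeR fit and include the spread between samples. Myc, counted together with the construct, had 152 to 1590 CPM in the tumors, 13 to 14.3 in the P7 cerebella and 33.7 to 45.7 in the SHH MB. Smarca4, counted over the whole gene including transcripts of a deleted allele, had 136 to 244, 221 to 282 and 491 to 590 CPM. Its difference between tumors and P7 cerebella did not pass the test (log2 fold change -0.30, adjusted p = 0.495 by edgeR), and the ranges overlapped. Mitochondrial genes took 2.29% to 6.36% of the counts in the tumors and 1.25% to 1.59% in the other libraries. No cell type marker examined was at 0 in any library. Summed markers of GCPs were present in every group, with 710 to 1730 CPM in the tumors, 1790 to 1870 in the P7 cerebella and 3360 to 4040 in the SHH MB.

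In the fit of all 10 libraries, only Bnip3 of the 9 members passed the threshold used. It did so only for tumors against SHH MB, where its level was 6.22-fold higher in the tumors. In that comparison 4.68% of all tested genes were called, and 1 of 9 members is to be read against that share. With these 2 groups fitted alone, the call was lost (edgeR adjusted p = 0.0743). With only SHH MB and P7 cerebella fitted, 6883 genes were called. Among them were Bnip3 (log2 fold change -1.55, edgeR adjusted p = 0.000547) and Epas1 (0.59, adjusted p = 0.00106). Hif1a and Epas1 had higher mean levels in the tumors than in P7 cerebella, but tumor 3 lay within or below the range of the cerebella and neither difference passed the test. For Hif1a, Epas1, Ndrg1 and Bnip3, tumor 1 exceeded tumor 3 by more than the tumors' mean exceeded that of the P7 cerebella. The plot of member levels shows every library.

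**Figure D1:**
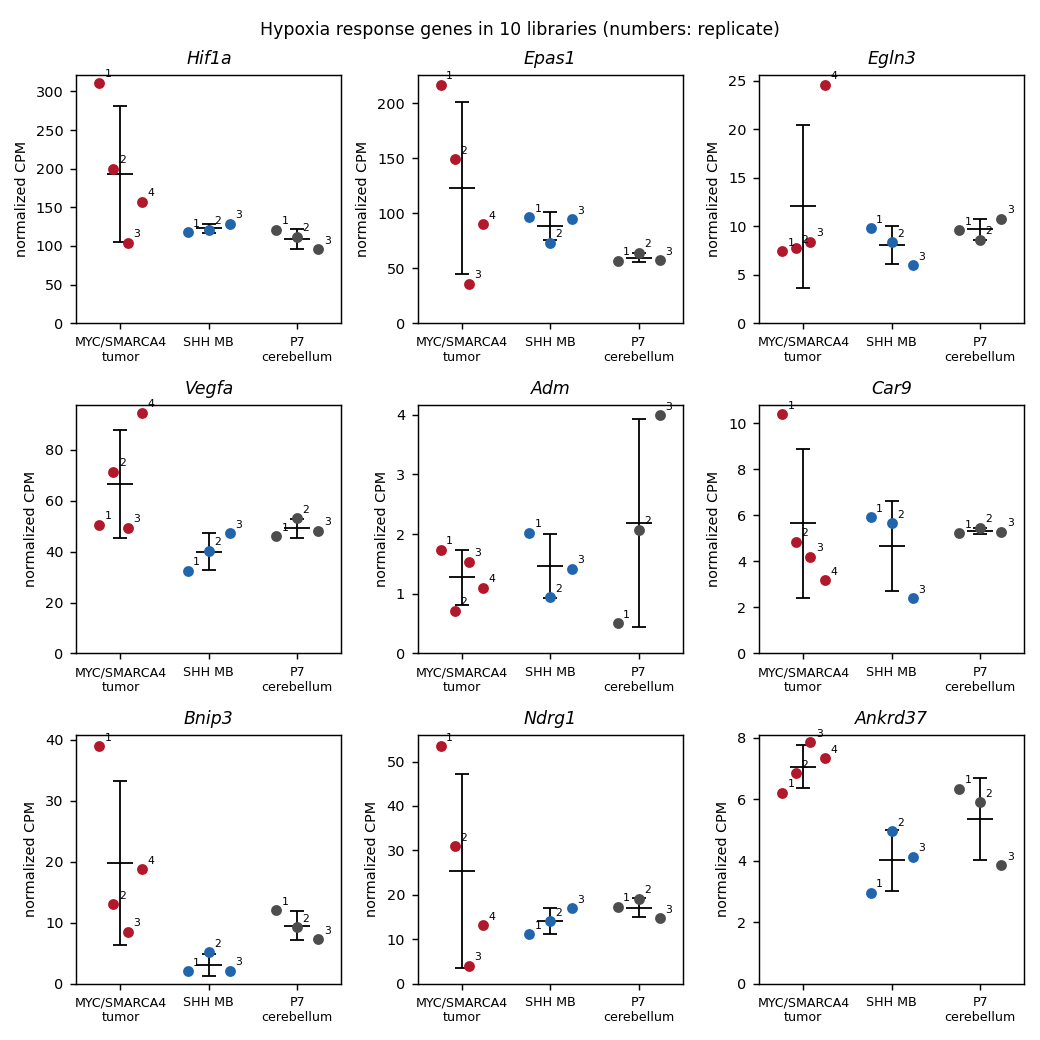
TMM-normalized CPM (y axis, starting at 0) of the 9 members in MYC/SMARCA4 tumors (n = 4), SHH MB (n = 3) and P7 cerebella (n = 3) on the x axis. Points are libraries with their replicate number, and lines are the mean ± SD. Tumor 1 is highest for Hif1a, Epas1, Car9, Bnip3 and Ndrg1, tumor 4 for Egln3 and Vegfa.

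On the scale of median normalized CPM per kb of exon over the 10 libraries, Hif1a and Epas1 (both 14.5) and Vegfa (11.3) stood above Ankrd37 (3.23), Egln3 (3.16), Car9 (2.15), Ndrg1 (2.13), Bnip3 (2.06) and Adm (0.909). The ranges of Hif1a (11.5 to 37.3), Epas1 (6.34 to 38.4) and Vegfa (7.54 to 22) overlapped, so that their order is not separated. Those of Epas1 and Vegfa also overlapped those of Egln3 (2.22 to 9.15) and Bnip3 (0.468 to 9.01).

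Hif1a encodes the oxygen-regulated alpha subunit of HIF1 and lies at chr12:73948149-73996321 on the plus strand (GRCm39). It had 311, 200, 104 and 157 normalized CPM in tumors 1 to 4, 121, 112 and 95.6 in the P7 cerebella and 118, 121 and 129 in the SHH MB. Tumors 1, 2 and 4 were above all control libraries, while tumor 3 lay between P7 cerebella 2 and 3. The mean was 193 ± 88.0 CPM (SD, n = 4) in the tumors, 109 ± 12.7 (n = 3) in the P7 cerebella and 122 ± 5.72 (n = 3) in the SHH MB. The log2 fold change of tumors against P7 cerebella was 0.82 (SE 0.34, 95% interval 0.09 to 1.55, edgeR adjusted p = 0.154) and against SHH MB 0.65 (-0.07 to 1.38, adjusted p = 0.302). Both missed the threshold, as did the comparison of SHH MB with P7 cerebella (0.16, -0.60 to 0.93, adjusted p = 0.942). Without tumor 3, the values were 0.83 (adjusted p = 0.0183) and 0.69 (adjusted p = 0.0479), and both differences passed. Without tumor 1 they were 0.50 (adjusted p = 0.2) and 0.32 (adjusted p = 0.529), and on library totals, in place of TMM factors, 0.32 and 0.27.

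Epas1 encodes HIF2 alpha, which is known from endothelium and other stromal cells, and lies at chr17:87061087-87140838 on the plus strand. Levels were 217, 149, 35.8 and 90.0 normalized CPM in tumors 1 to 4, 56.7, 64.2 and 57.5 in the P7 cerebella, and 96.5, 73.3 and 94.5 in the SHH MB. Tumor 3 was the lowest of all 10 libraries and tumor 1 the highest, and all SHH MB were above all P7 cerebella. Means were 123 ± 77.7 (SD, n = 4), 59.5 ± 4.11 (n = 3) and 88.1 ± 12.8 (n = 3) CPM, respectively. The difference between tumors and P7 cerebella did not pass (log2 fold change 1.04, SE 0.46, 95% interval 0.06 to 2.03, edgeR adjusted p = 0.176). Without tumor 3 it did (1.16, adjusted p = 0.0104), while without tumor 1 the value was 0.64 (adjusted p = 0.285) and on library totals 0.47. Against SHH MB, the tumors' log2 fold change was 0.48 (-0.49 to 1.45, adjusted p = 0.595), and it was 0.05 without tumor 1 and 0.02 on library totals. SHH MB against P7 cerebella gave 0.57 (-0.46 to 1.60, adjusted p = 0.812), which passed only when these 2 groups were fitted alone (0.59, adjusted p = 0.00106). In bulk tissue, fewer cells of a type and less RNA per cell cannot be told apart. Endothelial markers, 12 genes summed, had 354, 124, 97.9 and 128 CPM in tumors 1 to 4. They had 170 to 174 in the P7 cerebella and 153 to 177 in the SHH MB. Relative to all P7 cerebella, tumor 1 was above and tumor 3 below both in these markers and in Epas1. Tumors 2 and 4 were below in these markers and above in Epas1. Pericyte markers, 8 genes summed, had 414, 371, 183 and 222 CPM in tumors 1 to 4. They had 247 to 273 in the P7 cerebella and 314 to 339 in the SHH MB. What part endothelial cells or pericytes have in the Epas1 result was not tested.

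Egln3 encodes PHD3, a prolyl hydroxylase that HIF itself induces and that marks HIF alpha for destruction (chr12:54225767-54250673, minus strand). It had 7.44, 7.74, 8.40 and 24.6 normalized CPM in tumors 1 to 4, 9.60, 8.62 and 10.8 in the P7 cerebella and 9.80, 8.37 and 5.97 in the SHH MB. Tumor 4 stood apart with 202 counts, and the other tumors lay within the range of the controls. The tumors had 12.1 ± 8.40 CPM (SD, n = 4), the P7 cerebella 9.69 ± 1.11 (n = 3) and the SHH MB 8.04 ± 1.94 (n = 3). Tumors did not differ detectably from P7 cerebella (log2 fold change 0.33, 95% interval -0.60 to 1.26, adjusted p = 0.628) or SHH MB (0.60, -0.35 to 1.54, adjusted p = 0.484) in edgeR. Without tumor 4, both values turned negative (-0.35 and -0.08). On library totals they were -0.03 and 0.34. Between SHH MB and P7 cerebella the value was -0.27 (-1.26 to 0.73, adjusted p = 0.926).

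Vegfa, the main growth factor for blood vessels, lies at chr17:46327919-46343309 on the minus strand. It had 50.6, 71.4, 49.4 and 94.5 normalized CPM in tumors 1 to 4, 46.1, 53.1 and 48.1 in the P7 cerebella and 32.4, 40.4 and 47.2 in the SHH MB. All tumors were above all SHH MB, and tumors 1 and 3 lay within the range of the P7 cerebella. Means were 66.5 ± 21.3 (SD, n = 4), 49.1 ± 3.59 (n = 3) and 40.0 ± 7.41 (n = 3) CPM. Tumors against SHH MB gave a log2 fold change of 0.73 (SE 0.28, 95% interval 0.12 to 1.35, edgeR adjusted p = 0.169), and against P7 cerebella 0.44 (-0.17 to 1.05, adjusted p = 0.326). Without tumor 4 these were 0.47 and 0.16, and on library totals 0.48 and 0.06. SHH MB against P7 cerebella gave -0.30 (-0.94 to 0.35, adjusted p = 0.853).

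Adm encodes adrenomedullin, a peptide that widens vessels, and lies at chr7:110226858-110229027 on the plus strand. Its counts were the lowest of the members, between 4 and 28 per library. Levels were 1.74, 0.720, 1.54 and 1.10 normalized CPM in tumors 1 to 4, 0.511, 2.07 and 3.99 in the P7 cerebella and 2.02, 0.943 and 1.42 in the SHH MB. The P7 cerebella held both the highest and the lowest library. A difference was not detectable at this depth. The log2 fold change was -0.77 for tumors against P7 cerebella (95% interval -2.20 to 0.66, edgeR adjusted p = 0.458), -0.20 against SHH MB (-1.68 to 1.28, adjusted p = 0.9) and -0.57 for SHH MB against P7 cerebella (-2.09 to 0.94, adjusted p = 0.887). Without P7 cerebellum 3, the first and last values were -0.10 and 0.18.

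Car9 encodes carbonic anhydrase IX, a surface enzyme that helps cells to export acid (chr4:43506966-43513729, plus strand). It had 10.4, 4.86, 4.2 and 3.17 normalized CPM in tumors 1 to 4, 5.21, 5.46 and 5.28 in the P7 cerebella and 5.91, 5.66 and 2.41 in the SHH MB. Tumor 1 was above every control library, and tumors 2, 3 and 4 were below every P7 cerebellum. Between 17 and 51 reads were counted per library. The log2 fold change of tumors was 0.06 against P7 cerebella (95% interval -0.93 to 1.06, edgeR adjusted p = 0.935) and 0.25 against SHH MB (-0.76 to 1.26, adjusted p = 0.803). Without tumor 1, these were -0.38 and -0.22, and relative to library totals -0.40 and -0.12, so that no direction can be given. SHH MB against P7 cerebella gave -0.19 (-1.25 to 0.87, adjusted p = 0.954).

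Bnip3 encodes a protein of the outer mitochondrial membrane that recruits the autophagy machinery and is a classical HIF1 target. It lies at chr7:138490690-138511253 on the minus strand, next to the upstream stretch printed above. Levels were 38.9, 13, 8.54 and 18.8 normalized CPM in tumors 1 to 4, 12, 9.28 and 7.28 in the P7 cerebella and 2.02, 5.18 and 2.13 in the SHH MB. The SHH MB were below all other libraries, while tumors and P7 cerebella overlapped. The mean was 19.8 ± 13.4 CPM (SD, n = 4) in the tumors, 9.50 ± 2.35 (n = 3) in the P7 cerebella and 3.11 ± 1.80 (n = 3) in the SHH MB. The tumors exceeded the SHH MB by a log2 fold change of 2.64 (SE 0.55, 95% interval 1.45 to 3.82, edgeR adjusted p = 0.0181). By p-value, it ranked 574 among all genes in this comparison. The call was kept in 14 of 17 alternative fits. It was lost without SHH MB 1 (2.40, adjusted p = 0.118), without SHH MB 3 (2.42, adjusted p = 0.125) and when only these 2 groups were fitted (2.56, adjusted p = 0.0743). The value was 2.20 (adjusted p = 0.0181) relative to library totals.

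Against P7 cerebella, the tumors' Bnip3 level had a log2 fold change of 1.04 (SE 0.50, 95% interval -0.04 to 2.12, edgeR adjusted p = 0.21), and of 0.51 without tumor 1 and 0.52 on library totals. SHH MB against P7 cerebella gave -1.59 (SE 0.55, -2.79 to -0.39, adjusted p = 0.407). The latter passed in the fit of these 2 groups alone (-1.55, adjusted p = 0.000547). Markers of mature granule neurons, 7 genes summed, were also lower in all SHH MB (218 to 242 CPM) than in all P7 cerebella (424 to 539) and all tumors (249 to 6430), and their part in the result was not tested.

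Ndrg1 encodes a stress-induced cytoplasmic protein, known as a hypoxia marker and from myelinating cells (chr15:66801166-66841835, minus strand). It had 53.5, 31, 4.06 and 13.1 normalized CPM in tumors 1 to 4, 17.3, 19.1 and 14.8 in the P7 cerebella and 11.2, 14 and 17 in the SHH MB. Tumors 1 and 2 were above and tumor 3 below all control libraries. Relative to its mean it varied most of the members between tumors (coefficient of variation 86.0%), with 25.4 ± 21.8 CPM (SD, n = 4), against 17.1 ± 2.14 (n = 3) in the P7 cerebella and 14.1 ± 2.92 (n = 3) in the SHH MB. The log2 fold change was 0.56 against P7 cerebella (95% interval -0.73 to 1.85, edgeR adjusted p = 0.548), 0.84 against SHH MB (-0.47 to 2.14, adjusted p = 0.478) and -0.28 for SHH MB against P7 cerebella (-1.64 to 1.09, adjusted p = 0.946). The first turned to -0.09 without tumor 1 and to -0.06 on library totals, and the second to 0.16 and 0.33.

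Ankrd37 encodes a small ankyrin repeat protein and is a HIF1 target. It lies at chr8:46449939-46458744 on the minus strand. Levels were 6.20, 6.84, 7.84 and 7.32 normalized CPM in tumors 1 to 4, 6.33, 5.90 and 3.85 in the P7 cerebella and 2.96, 4.95 and 4.12 in the SHH MB. All tumors were above all SHH MB, and the tumors had 7.05 ± 0.698 CPM (SD, n = 4). Their coefficient of variation, 9.90%, was the lowest of the members with TMM factors, but on library totals tumor 1 had 0.386 times the level of tumor 3. The SHH MB had 4.01 ± 1.00 CPM (n = 3) and the P7 cerebella 5.36 ± 1.32 (n = 3). The log2 fold change against SHH MB was 0.81 (SE 0.35, 95% interval 0.05 to 1.57, edgeR adjusted p = 0.219) and against P7 cerebella 0.39 (-0.35 to 1.13, adjusted p = 0.462). The latter was 0.18 without tumor 3, 0.15 without P7 cerebellum 3 and 0.07 on library totals. SHH MB against P7 cerebella gave -0.42 (-1.21 to 0.38, adjusted p = 0.826). On the opposite strand, 1156 of the 1874 exon bases of Ankrd37 are also exons of Ufsp2, and a further gene, Lrp2bp, shares 369. The strand setting of the counting is not given in the sources used here, so reads of these genes may not be told apart.

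The other members have shorter or no such overlaps. Genes on the opposite strand share 695 exon bases with Hif1a, 670 with Car9, 520 with Adm, 504 with Bnip3 and 64 with Vegfa, and a pair of genes share 419 and 640 with Ndrg1. Epas1 and Egln3 share none.

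Between tumors and P7 cerebella, 0 of the 9 members were called in edgeR, where 6.25% of all tested genes were (3.99% higher and 2.27% lower). DESeq2 and limma also called 0 members. At an unadjusted p under 0.05 there were 2 of 9 members (Hif1a and Epas1), which is no more than the share of all genes, 25.2%. The ranges of both groups overlapped for all 9 members, although 21.0% of all genes had ranges that did not. The median log2 fold change of the members was 0.44 and that of all genes -0.05.

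For tumors and SHH MB, 1 of 9 members (Bnip3) was called, where 4.68% of all genes were (2.43% higher and 2.26% lower). At an unadjusted p under 0.05 there were 3 members (Bnip3, Vegfa and Ankrd37), against 19.8% of all genes. These 3 also had ranges above those of the SHH MB, and 16.1% of all genes had ranges that did not overlap. The median was 0.65 for the members and 0.01 for all genes. Both comparisons use the same 4 tumors.

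SHH MB and P7 cerebella gave 0 called members in edgeR, DESeq2 and limma, and 0.224% of all genes were called in edgeR (0.177% higher and 0.0467% lower). At an unadjusted p under 0.05 there was 1 member (Bnip3), against 8.8% of all genes. Ranges did not overlap for 2 members, Epas1 and Bnip3, where 36.8% of all genes had this. The median was -0.28 for the members and -0.09 for all genes. With these 2 groups fitted alone, 2 members (Epas1 and Bnip3) and 6883 genes were called. The plot of fitted changes shows that Bnip3 had the only filled point.

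**Figure D2:**
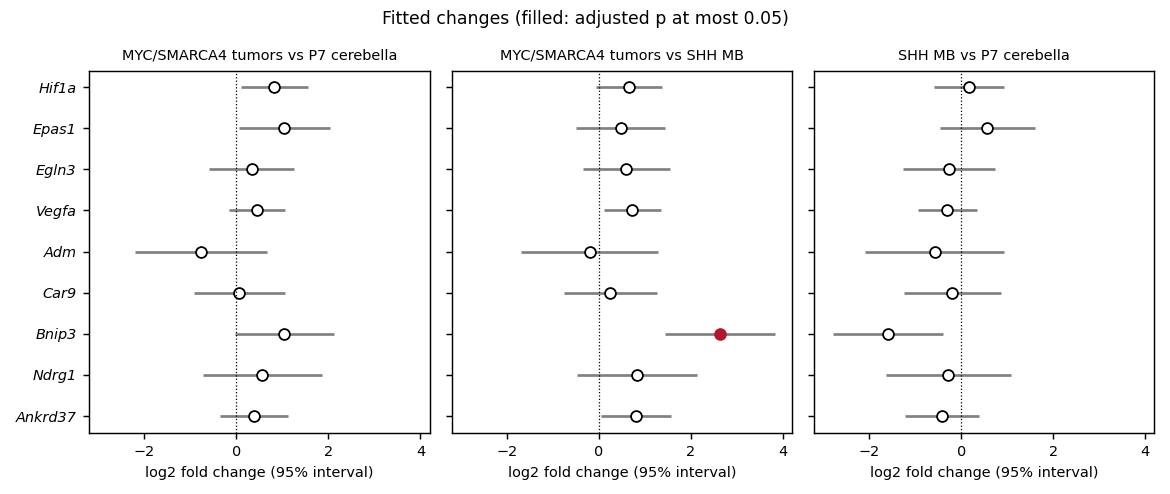
Log2 fold change (x axis) of the 9 members (y axis) in 3 comparisons by edgeR, with 95% intervals as lines. Filled points have an adjusted p of at most 0.05, which holds for Bnip3 in tumors against SHH MB with 2.64.

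The scaling of libraries bears on every direction against the tumors, because the TMM factors were 0.62, 0.80, 1.28 and 0.88 in tumors 1 to 4 and 1.01 to 1.20 in the controls. Relative to library totals, an alternative chosen after the data were seen, the median of all genes moved by -0.37 on the log2 scale for tumors against P7 cerebella, by -0.23 against SHH MB and by -0.11 for SHH MB against P7 cerebella. The members' medians then were 0.06, 0.33 and -0.39. The factors of RLE, DESeq2's method, moved the median of all genes by 0.03 or less.

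Hif1a, Epas1 and Ndrg1 shared the order tumor 1, 2, 4, 3 from high to low, and Bnip3 had tumor 1, 4, 2, 3. Tumor 1 had 13.2 times the level of tumor 3 for Ndrg1 (95% counting interval 8.93 to 20.2), 6.05 times for Epas1 (5.26 to 6.98), 4.56 times for Bnip3 (3.37 to 6.23), 2.99 times for Hif1a (2.73 to 3.28) and 2.48 times for Car9 (1.52 to 4.1). With TMM factors the other members had intervals that included 1, namely Vegfa (1.02, 0.857 to 1.22), Adm (1.13, 0.371 to 3.18), Egln3 (0.886, 0.552 to 1.4) and Ankrd37 (0.791, 0.473 to 1.29). Relative to library totals, the ratio was 6.44 for Ndrg1, 2.95 for Epas1, 2.23 for Bnip3, 1.46 for Hif1a, 1.21 for Car9, 0.55 for Adm, 0.5 for Vegfa, 0.433 for Egln3 and 0.386 for Ankrd37, so that the last 4 were lower in tumor 1 on that scale.

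Markers of other cell types varied in the same tumors. Summed over 7 genes, mature granule neuron markers had 6430, 2450, 249 and 1280 normalized CPM in tumors 1 to 4, and 424 to 539 in the P7 cerebella. Purkinje cell markers, 6 genes, had 11300, 2730, 342 and 1880 CPM, against 1360 to 1470. Myelin markers, 9 genes, had 4180, 842, 120 and 467, against 966 to 1150. Granule and Purkinje neuron markers thus had the tumor order of Hif1a, Epas1 and Ndrg1, as did the myelin markers, and tumor 1 also had the highest mitochondrial share. Astrocyte and Bergmann glia markers, 9 genes, had another order with 544, 2780, 588 and 2080 CPM, against 2240 to 2310 in the P7 cerebella. Pericyte markers, 8 genes, had 414, 371, 183 and 222 CPM in tumors 1 to 4, and GCP markers, 8 genes, had 1730, 1410, 710 and 1120. Both lists thus also had the tumor order of Hif1a, Epas1 and Ndrg1. Microglia and macrophage markers, 10 genes, had 187, 122, 65.1 and 171 CPM, the tumor order of Bnip3, as did the endothelial markers. Markers of choroid plexus, fibroblasts and erythrocytes had other orders. What part these cells have in the members' levels was not tested. The heat map of members and markers places these values next to each other.

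**Figure D3:**
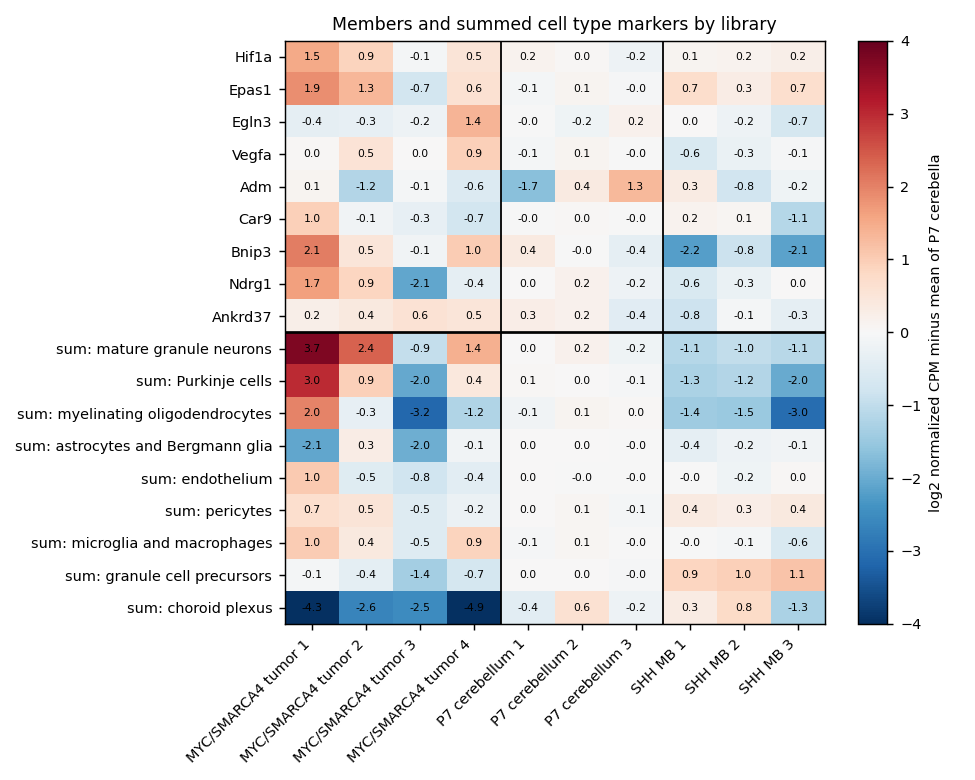
Log2 normalized CPM minus the mean of the P7 cerebella (color and printed number) for the 9 members and 9 summed marker lists (rows) in the 10 libraries (columns). The color scale ends at -4 and 4. Tumor 1 is at 1.5, 1.9, 2.1 and 1.7 for Hif1a, Epas1, Bnip3 and Ndrg1 and at 3.7 and 3.0 for mature granule neurons and Purkinje cells.

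Across the 10 libraries, the members did not form a single pattern. Pearson's r of log2 CPM was 0.89 for Hif1a with Epas1, 0.85 for Epas1 with Ndrg1, 0.77 for Hif1a with Ndrg1 and 0.75 for Bnip3 with Ankrd37. Against Hif1a, r was 0.36 for Vegfa, -0.08 for Egln3 and -0.27 for Adm. These are descriptions over 10 libraries that share groups, scaling and cell makeup. The genes of all tested ones with a mean log2 CPM of at least 3 whose profile was most like a member were Ptar1 and Mkln1 for Hif1a (r 0.99), Appl2 and Nr3c2 for Epas1 (0.98), Fam102a and Rnf152 for Ndrg1 (0.99) and Slc35f6 (0.97) and Dipk1b (0.96) for Bnip3. For Vegfa they were Dusp7 and Aup1 (0.96), for Ankrd37 Edem2 (0.92) and Rabggta (0.91), for Egln3 Shroom3 and Wdr59 (0.91), for Car9 Gm16146 and Sec14l5 (0.90) and for Adm Tigd5 and Mvd (0.74).

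A further 92 genes of the pathway were listed by function, of which 90 were tested. Between tumors and P7 cerebella 15 were called, where 6.25% of all tested genes were, with 11 higher and 4 lower (3.99% and 2.27% of all). Tumors against SHH MB gave 19, where 4.68% of all were called, with 15 higher and 4 lower (2.43% and 2.26% of all). SHH MB against P7 cerebella gave 1 (0.224% of all). Relative to library totals these were 9 (3 higher and 6 lower), 15 (9 higher and 6 lower) and 1, so that the split by direction depends on the scaling. Without any one P7 cerebellum the first count was 1 or 2, of which 0 were higher, and without any one SHH MB the second was 4 or 5, of which 2 or 3 were higher. In fits of 2 groups, 0 were higher against P7 cerebella and 2 against SHH MB, and with the replicate block 0 and 6. Without tumor 1 the totals in both directions were 33 and 32, and without tumor 3 they were 35 and 31. In each of these 25 were higher. The plot of the pathway lists shows each gene.

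**Figure D4:**
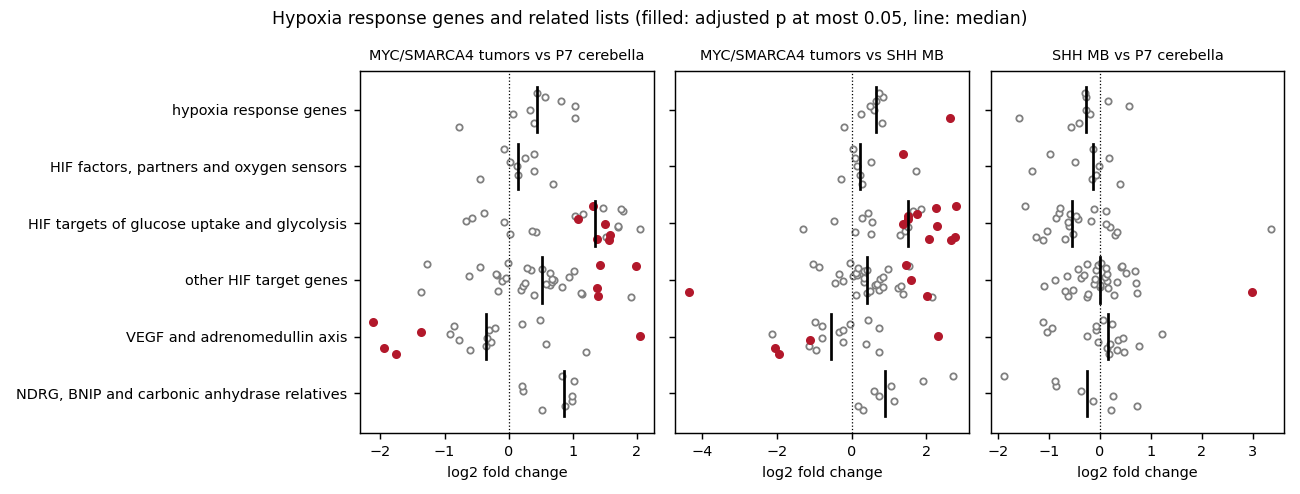
Log2 fold change (x axis, its range differs between panels) by edgeR of each member and of each gene of 5 pathway lists (rows) in 3 comparisons. Filled points have an adjusted p of at most 0.05, and vertical lines are list medians, which for genes of glucose uptake and glycolysis are at 1.35, 1.5 and -0.55.

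The list of glucose uptake and glycolysis genes, which also holds Ak4 and genes for glycogen and pyruvate control, had the highest number of calls. HIF1 and MYC are both known to induce glycolysis genes. Against P7 cerebella, calls in the VEGF and adrenomedullin axis, 5 of 18, were a similar share. Of the 22 glucose uptake and glycolysis genes, 6 rose in the tumors against P7 cerebella, with a list median of 1.35. Against SHH MB 10 of 22 rose, with a median of 1.5. No gene of the list was called lower in either comparison, although 4 and 2 had fitted values below 0, and none was called between SHH MB and P7 cerebella (median -0.55). Calls of higher genes against P7 cerebella, all those named here included, were lost without any one P7 cerebellum, in the fit of 2 groups and with the block. Against SHH MB, higher calls over all pathway lists fell from 15 to 2 or 3 without any one SHH MB. They fell to 2 in the fit of 2 groups and to 6 with the block. Most rises against SHH MB named here and below were thus lost without any one SHH MB. Markers of mature granule neurons were called higher in the tumors for 4 of 7 genes against P7 cerebella (median 2.73) and for 5 of 7 against SHH MB (median 3.71), and their part in these values was not tested. Tpi1, which encodes triosephosphate isomerase, had 216 ± 30.3 normalized CPM (SD, n = 4) in the tumors, 86.9 ± 12.4 (n = 3) in the P7 cerebella and 31.5 ± 5.16 (n = 3) in the SHH MB. It rose by a log2 fold change of 1.31 (SE 0.25, edgeR adjusted p = 0.0144) and 2.78 (SE 0.27, adjusted p = 0.000147), respectively. Ak4, a mitochondrial adenylate kinase, had 68.0 ± 15.1 (n = 4), 23.1 ± 4.18 (n = 3) and 10.7 ± 3.65 (n = 3) CPM, and its log2 fold change was 1.56 (adjusted p = 0.0157) and 2.66 (adjusted p = 0.000733).

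Pfkl, the liver type of phosphofructokinase, rose by 1.08 (adjusted p = 0.0388) against P7 cerebella and by 1.5 (adjusted p = 0.0102) against SHH MB. Pdk3, a kinase that keeps pyruvate from the mitochondria, rose by 1.5 against P7 cerebella (adjusted p = 0.0244), and Aldoa, an aldolase, by 2.06 against SHH MB (adjusted p = 0.011). Relative to library totals, 2 genes of the list (Pdk3 and Tpi1) remained called against P7 cerebella and 7 against SHH MB, with medians of 0.86 and 1.20.

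Of the HIF factors, partners and oxygen sensors, 0 of 9 were called against P7 cerebella (median 0.14) and 1 of 9 against SHH MB (median 0.22). This was Hif3a, an alpha subunit that can restrain the others, with 20.2 ± 4.91 CPM (SD, n = 4) in the tumors and 7.74 ± 2.24 (n = 3) in the SHH MB (log2 fold change 1.38, SE 0.30, edgeR adjusted p = 0.0236). It was not called relative to library totals. Relatives of Ndrg1, Bnip3 and Car9 held 0 calls among 8 genes in each of the 3 comparisons, with medians of 0.86, 0.89 and -0.26.

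Other HIF target genes, 33 of 34 tested, gave 4 higher against P7 cerebella and 3 higher and 1 lower against SHH MB. Tfrc, the transferrin receptor for iron uptake, had 243 ± 56.2 CPM (SD, n = 4) in the tumors, 90.3 ± 12.3 (n = 3) in the P7 cerebella and 88.7 ± 5.06 (n = 3) in the SHH MB. Its log2 fold change was 1.43 (edgeR adjusted p = 0.0141) and 1.46 (adjusted p = 0.0114). Bhlhe41, a circadian repressor, rose by 1.39 (adjusted p = 0.0425) and 2.02 (adjusted p = 0.0103). Ero1a, an oxidase of the endoplasmic reticulum, rose by 1.38 (adjusted p = 0.0336) and Stc2, a secreted glycoprotein, by 1.98 (adjusted p = 0.0476) against P7 cerebella. Mif, a cytokine, rose by 1.59 against SHH MB (adjusted p = 0.0128). Relative to library totals, of these Tfrc remained called against P7 cerebella, and Tfrc and Bhlhe41 against SHH MB.

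Cxcr4, the receptor for the chemokine CXCL12 and a gene of migrating GCPs, was the exception in this list. It had 5.91 ± 4.44 CPM (SD, n = 4) in the tumors, 124 ± 17.9 (n = 3) in the SHH MB and 15.7 ± 2.97 (n = 3) in the P7 cerebella. The log2 fold change was -4.35 for tumors against SHH MB (SE 0.47, edgeR adjusted p = 3e-04) and 2.98 for SHH MB against P7 cerebella (SE 0.49, adjusted p = 0.0329), the only pathway gene called there. The latter was not called relative to library totals, where Tpi1 was, as lower.

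Called genes of the VEGF and adrenomedullin axis were mostly lower in the tumors. Of this list, 18 of 19 tested, 4 fell and 1 rose against P7 cerebella (median -0.35), and 3 fell and 1 rose against SHH MB (median -0.56). The gene that rose was Nrp2 in both, by 2.05 against P7 cerebella (edgeR adjusted p = 0.0256). Aplnr, the apelin receptor of growing vessels, had 5.58 ± 1.81 CPM (SD, n = 4) in the tumors, 21.7 ± 1.35 (n = 3) in the P7 cerebella and 23.7 ± 4.78 (n = 3) in the SHH MB. It fell by 1.94 (edgeR adjusted p = 0.00622) and by 2.06 (adjusted p = 0.00286) on the log2 scale. Angpt1, a ligand that stabilizes vessels, fell by 1.75 (adjusted p = 0.0209) and 1.94 (adjusted p = 0.0133).

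Vegfc, a lymphatic growth factor, fell by 2.11 (adjusted p = 0.0113) and Ramp1, a partner of the receptor CALCRL that adrenomedullin also uses, by 1.37 (adjusted p = 0.0127) against P7 cerebella. Kdr, the main receptor for VEGFA, fell by 1.12 against SHH MB (adjusted p = 0.0197), from 57.0 ± 10.6 (SD, n = 3) to 26.2 ± 4.22 CPM (n = 4). Nrp2, a co-receptor that neurons also carry, rose by 2.31 against SHH MB (adjusted p = 0.0174) and was not called relative to library totals. Over all pathway lists, lower calls against P7 cerebella fell from 4 to 1 or 2 without any one P7 cerebellum. They fell to 2 both in the fit of 2 groups and with the block. Against SHH MB, lower calls fell from 4 to 2 without any one SHH MB and in the fit of 2 groups, and to 3 with the block. Of the 12 endothelial markers, 0 were called in any of the 3 comparisons. Their median log2 fold change was 0.09 against P7 cerebella and -0.00 against SHH MB. Summed, they had 124, 97.9 and 128 CPM in tumors 2, 3 and 4, below all P7 cerebella and SHH MB, and 354 in tumor 1, above them all. Of 8 pericyte markers, 1 was called lower in each tumor comparison, where 2.27% and 2.26% of all genes were. The part of these cells in the results was not tested.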

How the data were processed

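Libraries of MYC/SMARCA4 tumors (n = 4), P7 cerebella (n = 3) and SHH MB (n = 3) were analysed. The authors extracted RNA with an FFPE kit, depleted ribosomal RNA and prepared CORALL total RNA libraries. The submitters' processing notes name FastQC 0.73, Trimmomatic 0.38.1, STAR 2.7.8a, featureCounts 2.0.1 and DESeq2 2.11.40.7, and the genome build is GRCm39. Annotation and strand setting are not given in the sources used here. The authors deposited whole-number counts per gene, without normalization, and log2-scale values from DESeq2's variance-stabilizing transformation (VST).

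Groups follow the labels, which name no batch, and p-values measure the spread between these samples. Counts of all 10 libraries were fitted with the quasi-likelihood test of edgeR 4.0.16 (R 4.3.3) with TMM factors and filterByExpr. P-values were adjusted by the Benjamini-Hochberg method over 29952 genes, with 0.05 as the threshold for calls. The common dispersion was 0.178. CPM values are TMM-normalized, and log2 CPM uses a prior count of 2. Pairs of replicates differed by at least 4.29 in chi-square per degree of freedom, so that replicates were treated as separate libraries. Pairs of tumors had 31.9 to 124, and pairs within the P7 cerebella and SHH MB 4.29 to 7.05. The spread was thus not equal between the groups that share its estimate.

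Alternatives were DESeq2 1.42.0, limma 3.58.1 on the VST values, RLE factors, library totals, other filters, fits of 2 groups, a replicate block and leaving out each library. All 9 members are named, and of each pathway list up to 4 called genes with the smallest p per comparison. For each member, the 2 genes with the highest Pearson r are also named. Other genes (such as Ufsp2) are named only where a result turns on them. The members and lists were chosen with earlier results of these data known.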

Additional observations from a re-analysis of the deposited data

Results flagged for a closer look

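Egln3 in MYC/SMARCA4 tumor 4 lay far from the other tumors, at 4.64 log2 CPM against 2.95, 3.00 and 3.12 in tumors 1, 2 and 3. Its gap to the nearest tumor was above Dixon's 95% critical value for 4 samples. Chance flags about 1 in 20 groups, and 9 genes were examined in the tumors. In the same library Vegfa was also highest among the tumors (6.57 log2 CPM), while Adm, Car9 and Ndrg1 were not. The groups of 3 were not examined in this way.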

How the results depend on the processing

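Of the planned refits of single members, 422 kept the direction and side of the threshold, 15 reversed, 5 passed the threshold that had not before, 3 lost it and 1 level moved by more than the spread of replicates. Alternatives on library totals were chosen after seeing the data. The cause of each change was not tested. A stricter threshold can only lower the number of calls. Fits of fewer libraries also change which samples set the shared spread, and pairs of tumors differed more than pairs of controls.

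Called members numbered 0 in tumors against SHH MB both in the fit of 2 groups and at the stricter threshold (adjusted p up to 0.01, log2 fold change from 2.5), and 2 in SHH MB against P7 cerebella in the fit of 2 groups. Leaving out single libraries gave 0 to 2 members against P7 cerebella, 0 to 2 against SHH MB and 0 between the controls.

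Pathway genes called in tumors against P7 cerebella were 28 by DESeq2, 9 by limma, 2 in the fit of 2 groups, 2 with the replicate block, 0 at the stricter threshold, 9 on library totals and 1 to 35 without single libraries. Against SHH MB they were 29 by DESeq2, 4 in the fit of 2 groups, 9 with the block, 3 at the stricter threshold and 4 to 32 without single libraries. Between SHH MB and P7 cerebella they were 4 by DESeq2, 2 without filter, 33 in the fit of 2 groups, 2 with robust estimation, 0 at the stricter threshold and 0 without single libraries.

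All genes called against P7 cerebella were 4414 by DESeq2, 1120 by limma, 229 in the fit of 2 groups, 370 with the block, 87 at the stricter threshold and 150 to 9932 without single libraries, the highest without tumor 3. Against SHH MB they were 3062, 875, 388, 631, 180 and 311 to 6729. Between the controls they were 457 by DESeq2, 133 with at least 10 counts in every library, 6883 in the fit of 2 groups, 19 with the block, 3 at the stricter threshold and 0 to 6 without single libraries. On library totals 1479 genes (307 higher, 1172 lower), 1339 (431 and 908) and 96 (47 and 49) were called, where TMM gave 1194 higher and 679 lower, 727 and 676, and 53 and 14.

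Against P7 cerebella, log2 fold changes turned to -0.30 (block), -0.35 (without tumor 4) and -0.03 (library totals) for Egln3, to -0.23 (10 counts in every library), -0.08 (2 groups), -0.38, -0.03 and -0.05 (without tumor 1, tumor 3 or P7 cerebellum 3) and -0.40 (library totals) for Car9, and to -0.09 (without tumor 1) and -0.06 (library totals) for Ndrg1. Against SHH MB, they turned to -0.02 (block) and -0.08 (without tumor 4) for Egln3, 0.08 (without SHH MB 1) for Adm, and -0.22 (without tumor 1), -0.06 (without SHH MB 3) and -0.12 (library totals) for Car9. Between the controls, Adm turned to 0.18 without P7 cerebellum 3 and Car9 to 0.15 without SHH MB 3. Without single libraries, the log2 fold changes against P7 cerebella reached from -0.35 to 0.51 for Egln3, -0.38 to 0.14 for Car9 and -0.09 to 0.72 for Ndrg1. Against SHH MB they were -0.08 to 0.76 for Egln3, -0.48 to 0.08 for Adm and -0.22 to 0.44 for Car9, and between the controls -1.04 to 0.18 for Adm and -0.36 to 0.15 for Car9. On library totals, the ratio of tumor 1 to tumor 3 turned to 0.5 for Vegfa and 0.55 for Adm.

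Same-numbered samples did not deviate together in each pair (correlations of -0.27 to 0.16), and the main fit used no pairing. With so few libraries, these values cannot show whether same-numbered samples were processed together. Tumor 4 has no partner. With the replicate block, 0, 1 and 0 members were called in the 3 comparisons. Depth limits Adm, with 4 to 28 counts.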
